A study of Homo sapiens with 10 samples.

Results

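The genes CDH1, CDH2 and VIM were followed across 6 RNA-seq libraries of 2 human lymphoma lines, OCI-LY10 and TMD8. They are 3 of 25249 gene symbols found in each of the deposited tables, and all 3 were found in both. They were chosen by their level in FPKM (fragments mapped, scaled for transcript length and library size): each was near 0 on one side and high on the other side of the difference between the OCI-LY10 control and STAT3 shRNA libraries. That difference is therefore described below without a test.

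CDH1 encodes E-cadherin and CDH2 encodes N-cadherin, calcium-dependent adhesion receptors of the plasma membrane that bind a like molecule on the neighbouring cell. Their cytoplasmic tails bind beta-catenin or plakoglobin, and alpha-catenin links these to actin. VIM encodes vimentin, the intermediate filament protein of mesenchymal cells that is also made by many leukocytes. In the epithelial-mesenchymal transition (EMT), loss of CDH1 with gain of CDH2 and VIM is read as a cadherin switch, driven by repressors of the SNAI, ZEB and TWIST families. Lymphocytes do not form the adherens junctions of epithelia.

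Both lines come from patients with the activated B-cell-like form of diffuse large B-cell lymphoma. In OCI-LY10, 1 library carries a control shRNA and the other 2 carry a STAT3 shRNA each, numbered 10 and 16, and all 3 cultures received doxycycline at 20 ng/ml for 2 days to induce the shRNA. The 3 TMD8 libraries are labelled with the same 3 shRNAs and the same induction, but the columns of their table carry no names, so TMD8 values are given in column order with no shRNA assigned. Each shRNA has 1 library per line, and the ChIP-seq libraries are not analysed here. No source used here says whether the libraries of a line came from separate transductions or clones.

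Sums of FPKM per library ran from 904547 to 1382160, with 22.5% to 58.3% of the sum in small RNA genes. Relative to the library of shRNA 10, depth was 1.52 in the OCI-LY10 control-labelled library and 0.731 with shRNA 16. STAT3 stood at 16.5 FPKM in the control-labelled library, 11.1 with shRNA 10 and 10.6 with shRNA 16, and at 120, 24.3 and 22.5 FPKM in the TMD8 columns. The library labelled OCI-LY10 control shRNA stood apart from the other OCI-LY10 libraries and near the TMD8 libraries. On log2(FPKM + 1) of 23192 genes (small RNA genes left out), Pearson's r was 0.938 and 0.939 between it and the STAT3 shRNA libraries, 0.975 to 0.985 between it and the TMD8 libraries, and 0.997 between both STAT3 shRNA libraries. These points are genes of the same libraries, so no p is given, and the tables were made separately. In a check for mixed-up samples, 1 of 6 libraries did not match the others of its line, and which label is at fault was not tested. A difference between lines and an effect of the STAT3 shRNAs therefore cannot be told apart below, where rose and fell mean higher and lower in the STAT3 shRNA libraries than in the control-labelled library. Every OCI-LY10 difference below rests on this 1 control library, and without it there is no comparison. Of 10 B-cell markers, 8 stood at 5 FPKM or more in all 6 libraries, among them PAX5, a B-lineage transcription factor, at 72.3 to 92.2. POU2AF1, a B-cell transcriptional coactivator, was not among them, at 2.44 FPKM in the control-labelled library. The 8 T and NK cell markers were under 1 FPKM in all 6 libraries.

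The stretches of DNA just upstream of VIM and CDH2 are shown because these genes were high in opposite libraries. They are the 250 bases before the gene's 5′ end in RefSeq (build GRCh38.p14), written 5′ to 3′ on the gene's own strand. The stretch upstream of VIM lies at chr10:17227991-17228240 on the plus strand, and that upstream of CDH2 at chr18:28177131-28177380 on the minus strand. Capitals mark a GC box (GGGCGG on either strand) and a CCAAT box (CCAAT on either strand).
VIM: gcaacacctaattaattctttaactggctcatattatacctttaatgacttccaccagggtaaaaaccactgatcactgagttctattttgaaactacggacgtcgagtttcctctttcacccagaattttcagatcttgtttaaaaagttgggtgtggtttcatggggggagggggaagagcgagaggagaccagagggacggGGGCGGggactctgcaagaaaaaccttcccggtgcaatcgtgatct
CDH2: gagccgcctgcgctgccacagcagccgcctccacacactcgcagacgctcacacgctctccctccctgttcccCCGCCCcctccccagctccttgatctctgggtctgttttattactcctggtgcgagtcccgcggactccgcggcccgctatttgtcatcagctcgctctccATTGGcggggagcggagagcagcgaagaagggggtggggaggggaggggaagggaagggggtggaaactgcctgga

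The VIM window held 1 GC box and the CDH2 window 1 GC box and 1 CCAAT box. Over all 35116 RefSeq promoter windows of that length, 42.6% held a GC box and 32% a CCAAT box. The E-box CACCTG, which SNAI and ZEB proteins bind, and the STAT motif TTCNNNGAA, both searched on either strand, matched 0 times in both windows. These motifs were in 17.5% and 6.57% of all windows. G and C made up 46.0% of the VIM window and 66.0% of the CDH2 window, against a median of 58.0%. A second CDH2 entry, at chr18:28036642-28036891 and not at the gene's 5′ end, held 0 GC boxes and 1 CCAAT box, with 42% G and C. Which start is used in these cells was not tested. CDH1 was matched to no entry of the promoter table.

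E-cadherin's gene CDH1 was expressed in the control-labelled OCI-LY10 library and in TMD8, and almost unread in both STAT3 shRNA libraries. It stood at 32.6 FPKM in the control-labelled library, 0.0102 with shRNA 10 and was listed at 0 with shRNA 16. The TMD8 columns held 16.2, 17.2 and 15.8 FPKM, a range of 1.09-fold. The control-labelled library was thus the highest of the 6, and the median of TMD8 was 0.497 times its level. On the log2(FPKM + 1) scale the mean of both shRNA libraries lay 5.06 below the control (log2 difference −5.06). In the control-labelled library 90.1% of genes outside small RNA genes had a lower FPKM than CDH1, and in TMD8 80.8% to 82.0% did.

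N-cadherin's gene CDH2 showed the reverse. It was at 0.134 FPKM in the control-labelled library, 94.7 with shRNA 10 and 107 with shRNA 16, and it was listed at 0 in all 3 TMD8 columns. High levels were thus seen in the STAT3 shRNA libraries of OCI-LY10 and in no other library. The ratio to the control-labelled library was 708 for shRNA 10 and 799 for shRNA 16. The log2 difference was 6.48 on the log2(FPKM + 1) scale. In the shRNA libraries CDH2 ranked 810 and 699 from the top among genes outside small RNA genes.

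Vimentin's gene VIM was on the side of CDH1. It stood at 185 FPKM in the control-labelled library, 0.0731 with shRNA 10 and 0.1001 with shRNA 16. In the TMD8 columns it was at 169, 179 and 105 FPKM, a 1.70-fold range, and the control-labelled library lay just above the highest of these. The log2 difference between the shRNA libraries and the control was −7.42 on the log2(FPKM + 1) scale. VIM was among the most abundant transcripts where it was expressed, at rank 377 in the control-labelled library and 359 to 674 in TMD8. The ratio of its values with shRNA 16 and shRNA 10, 1.37, equalled the commonest ratio among values under 0.1 FPKM, 1.37, which is the ratio given by 1 read in each library. Where whole reads were counted, both libraries then held the same number of VIM reads, and that number is unknown.

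**Figure D1:**
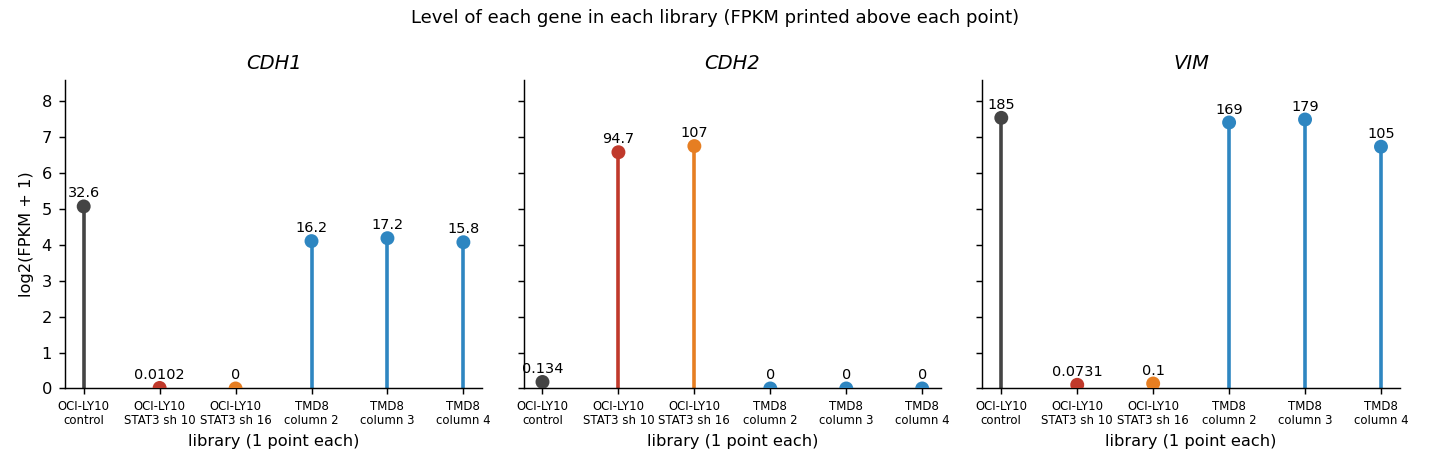
Level of CDH1, CDH2 and VIM in each of the 6 libraries as log2(FPKM + 1), 1 point per library, with the FPKM printed above it (TMD8 columns by position, no shRNA assigned). CDH1 and VIM are high in the control-labelled OCI-LY10 library and in all TMD8 columns, and CDH2 is high in the STAT3 shRNA libraries alone, at 94.7 and 107 FPKM.

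The 3 genes did not take the directions of the EMT cadherin switch. CDH1 and CDH2 were exchanged, but VIM was lost together with CDH1. Between the libraries of shRNA 16 and shRNA 10 the genes differed little next to that gap: CDH2 was 1.13 times as high with shRNA 16, and CDH1 and VIM were at or under 0.1001 FPKM with either. With 1 library per shRNA that comparison has no replicate check. Ordered by FPKM, the control-labelled library and each TMD8 column read VIM over CDH1 over CDH2, and both shRNA libraries read CDH2 over VIM over CDH1. Among 10833 tested genes outside small RNA genes, the OCI-LY10 difference of VIM ranked 4 by absolute size, that of CDH2 9 and that of CDH1 45. These ranks describe how the genes were chosen, and each of the 3 passed the filter on low values, a mean of 1 FPKM over OCI-LY10, only through the libraries where it was high. In bulk RNA, fewer cells that express a gene and less RNA per cell cannot be told apart.

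**Figure D2:**
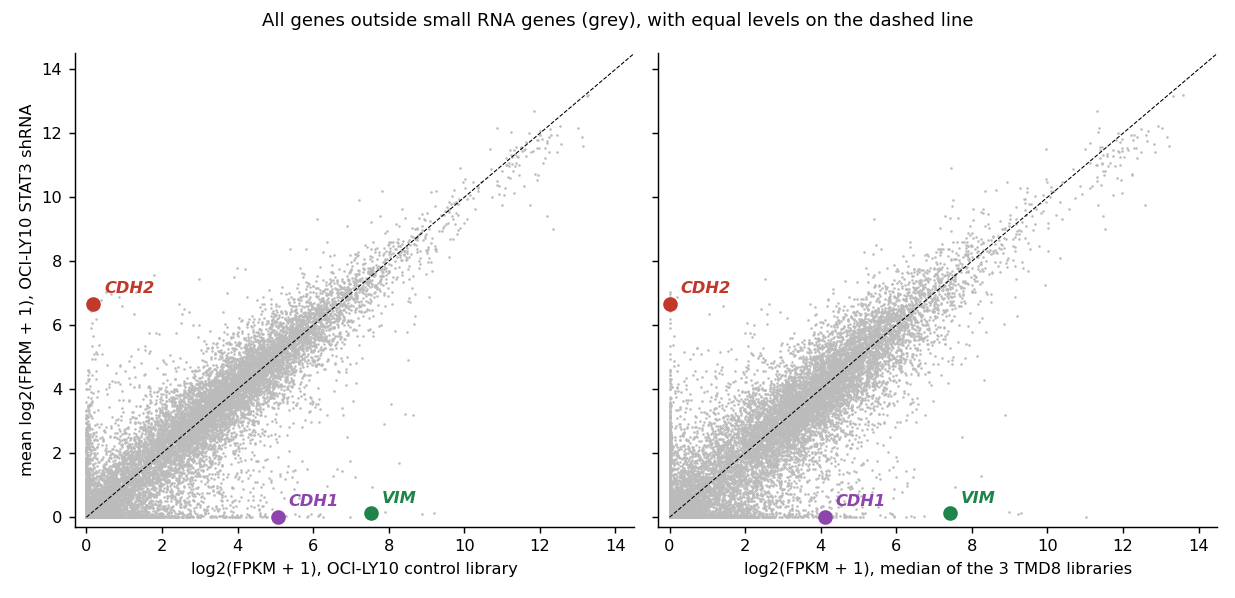
Mean log2(FPKM + 1) of both OCI-LY10 STAT3 shRNA libraries (vertical axis) against the control-labelled OCI-LY10 library (left) and the median of the TMD8 libraries (right), for each gene outside small RNA genes (grey points), with the dashed line at equal levels. CDH2 lies near the vertical axis and CDH1 and VIM near the horizontal axis in both panels.

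The pattern of each gene was shared by many others. A total of 167 genes outside small RNA genes were at 5 FPKM or more in the control-labelled library and at 0.5 or less in both STAT3 shRNA libraries, as CDH1 and VIM were. Of these, 109 (65.3%) were also at 5 FPKM or more in all 3 TMD8 columns and 1 (0.599%) was at 0.5 or less in all 3. In the reverse pattern, that of CDH2, 105 genes were found, of which 0 were at 5 FPKM or more in all TMD8 columns and 93 (88.6%) at 0.5 or less in all. Over all 23192 genes, 32.2% were at 5 FPKM or more and 48.9% at 0.5 or less in all TMD8 columns. TMD8 thus had the state of the control-labelled library for all 3 genes and for most genes of both patterns.

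**Figure D3:**
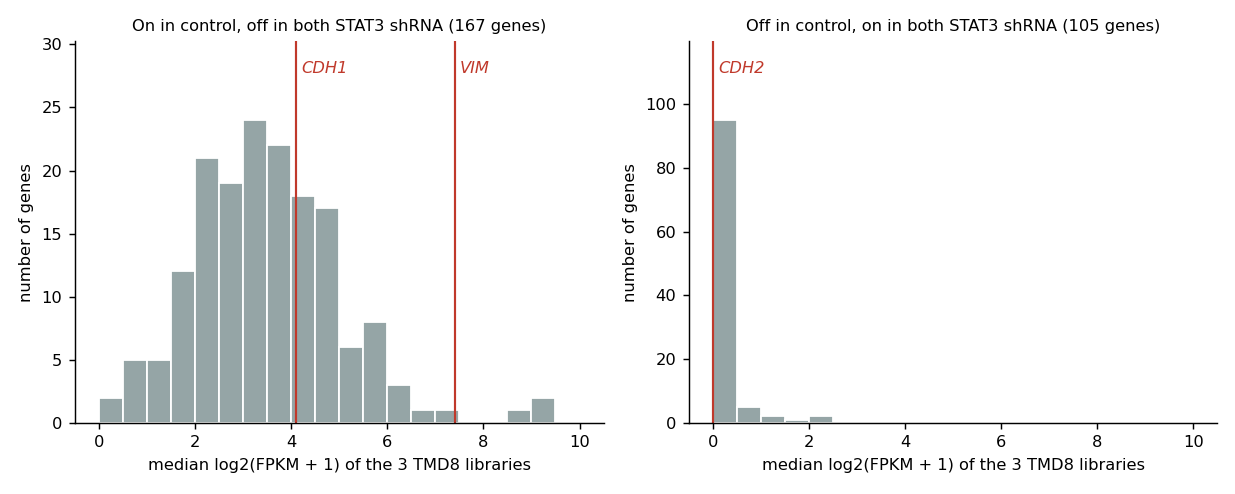
Number of genes by median log2(FPKM + 1) of the TMD8 libraries, for the 167 genes with the OCI-LY10 pattern of CDH1 and VIM (left) and the 105 with that of CDH2 (right), with red lines at the named genes. The left group spreads up to high TMD8 levels and the right group lies almost wholly in the lowest bin.

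The genes nearest to each member over all 6 libraries, by Euclidean distance of log2(FPKM + 1), came from 17627 protein-coding genes. Nearest to CDH1 were CD58, the ligand of the T-cell surface protein CD2 (distance 0.37), the interferon-induced IFITM1 (0.54), the smooth muscle actin gene ACTG2 (0.64), the integrin subunit gene ITGA4 (0.75) and AHR, a ligand-activated transcription factor (0.75). CD58 stood at 33.7 FPKM in the control-labelled library, was listed at 0 with both STAT3 shRNAs and held 15.5, 15.3 and 20.0 FPKM in TMD8. Nearest to CDH2 were the amyloid precursor gene APP (0.31), LY6E (0.34), the deubiquitinase gene UCHL1 (0.63), SNURF (0.65) and the cancer-testis gene MAGEA1 (0.76), all 5 listed at 0 in every TMD8 column. SNURF shares its locus with SNRPN and MAGEA1 has close paralogs, so their values are uncertain. Nearest to VIM were CD24 (1.47), LIMA1 (2.27), the peroxiredoxin gene PRDX2 (2.46), CYTIP (2.71) and the cytokine gene IL10 (2.74), all at larger distances than for CDH1 or CDH2. CD24 has near-identical copies in the genome and is uncertain. Over the OCI-LY10 libraries alone, 2 of the 5 for CDH1, 4 for CDH2 and 1 for VIM were again among the nearest 5.

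Genes beside the members did not share their levels. CDH3, the P-cadherin gene next to CDH1, was at most 0.0475 FPKM in any library, and TANGO6 on the other side stood at 5.11 to 7.97 FPKM in all 6. On either side of CDH2, CHST9 was listed at 0 in all 6 libraries and the desmosomal cadherin gene DSC3 reached at most 0.0290 FPKM. TRDMT1, beside VIM, was at 0.413 to 0.812 FPKM, and ST8SIA6 was listed at 0 in all 6. The exception was VIM-AS1, an RNA gene that overlaps VIM, at 0.916 FPKM in the control-labelled library, listed at 0 with both STAT3 shRNAs, and at 0.710, 1.00 and 1.05 in TMD8. Use of strand in the counting is not given in the sources used here, so reads of VIM and VIM-AS1 cannot be told apart.

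CDH1 and CDH2 were the only abundant genes among the cadherin genes with a CDH symbol listed here. Of 21 others with such a symbol, 20 were under 1 FPKM in every library and 7 were listed at 0 in all 6. CDH24 reached 1.87 FPKM in TMD8 and was at 1.00 in the control-labelled library, 0.146 with shRNA 10 and 0.319 with shRNA 16. None of the 21 passed the filter of a mean of 1 FPKM over the OCI-LY10 libraries, so 0 were tested. Outside that list, the desmosomal cadherin gene DSG2 had the pattern of CDH2. It was at 0.0567 FPKM in the control-labelled library, 6.70 with shRNA 10, 6.29 with shRNA 16 and at most 0.0244 in TMD8.

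The remaining groups were read from a limma fit of both STAT3 shRNA libraries against the control-labelled library, on log2(FPKM + 1) and with Benjamini-Hochberg adjustment over all 11146 genes tested. It called 20.2% of these genes higher and 17.3% lower with a median log2 change of 0.06, and the shares called in each list are to be read against that. The share of all genes at an unadjusted p below 0.05 is not given here. List counts at that threshold therefore have no share to be read against and add no support. Of 40 list genes called, 14 were under 1 FPKM throughout their lower side, so they passed the filter through the other side alone and had to differ. Their calls carry no more than their values, which are given without a p. The spread of the control-labelled library is unobserved and was taken to equal that between the STAT3 shRNA libraries, so p-values measure only the spread between those 2 libraries, which may be technical.

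Among partners of cadherins, calls went both ways, with beta-catenin lower and plakoglobin higher. CTNNB1 fell from 89.7 FPKM in the control-labelled library to 43.4 and 45.2 with shRNA 10 and 16 (log2 change −1.0, SE 0.09, limma adjusted p = 0.0184), and TMD8 held 80.6 to 85.7 FPKM. JUP, the plakoglobin gene, rose from 4.44 to 86.9 and 114 FPKM (log2 change 4.21, SE 0.22, limma adjusted p = 0.0107), against 4.42 to 6.94 in TMD8. PKP4, an armadillo-repeat protein of junctions, was listed at 0 in the control-labelled library and in TMD8 and held 17.1 and 17.7 FPKM with the STAT3 shRNAs. LIMA1, which ties the cadherin-catenin complex to actin, fell from 136 to 1.37 and 1.46 FPKM. Alpha-catenin CTNNA1 did not pass, at 50.4 FPKM in the control-labelled library and 28.6 and 35.4 with the shRNAs (limma adjusted p = 0.0894), and CTNND1, the p120-catenin gene, was between 0.728 and 1.07 FPKM in all 6 libraries. Of 16 genes of the cadherin complex, 11 were tested, 3 rose, 3 fell and 5 did not pass, with a median log2 change of −0.12. The sheddase gene ADAM10 (limma adjusted p = 0.0495) and FURIN, which removes the cadherin propeptide (limma adjusted p = 0.0499), were the other 2 called. The ADAM10 call was lost in 5 of 7 alternatives and the FURIN call in 3 of 6, with limma adjusted p up to 0.0994 and 0.114.

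Among receptors that bind cadherins, both subunits of the E-cadherin receptor of lymphocytes were called, in opposite directions. ITGB7, the integrin beta subunit that pairs with ITGAE to bind E-cadherin, rose from 2.77 FPKM to 48.8 and 56.3 (limma adjusted p = 0.00771). Its partner ITGAE fell from 4.73 to 2.15 and 1.76 FPKM (limma adjusted p = 0.0319), a call lost without the filter (0.0800). FGFR1, a receptor tyrosine kinase that N-cadherin can bind, was at 3.02 FPKM in the control-labelled library, 0.00991 with shRNA 10 and a listed 0 with shRNA 16. Of the 5 genes of this group, 3 were tested, 1 rose and 2 fell, FGFR1 through 1 side alone, with a median log2 change of −0.96. EGFR was listed at 0 in all 6 libraries.

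EMT transcription factors that were called were all lower where CDH2 was high. Of 13, 5 were tested, 0 rose, 3 fell and 2 did not pass, with a median log2 change of −1.0. At an unadjusted p below 0.05 limma gave 0 higher and 3 lower, with no share over all genes beside these counts. ZEB2, a repressor of CDH1 in epithelia, fell from 15.0 FPKM to 1.17 and 1.44 (log2 change −2.80, SE 0.13, limma adjusted p = 0.00951), while TMD8 held 15.2 to 19.9. SNAI1 fell from 5.23 to 1.91 and 2.10 FPKM (limma adjusted p = 0.0207), and TCF3, an E protein of B cells, from 73.5 to 34.6 and 38.0 (0.0229). Without the filter on low values these calls were lost (limma adjusted p = 0.0523 and 0.0528). ZEB1 did not pass, at 7.01 FPKM against 7.42 and 8.46, nor did TCF4, at 64.7 against 66.3 and 60.0. SNAI2, TWIST1, TWIST2, FOXC2 and GSC were listed at 0 in all 6 libraries. The 5 precursor genes of the miR-200 family, whose products target ZEB1 and ZEB2, were also listed at 0 in all 6, which says nothing of the mature miRNAs.

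In the TGF-beta pathway, a common inducer of EMT, members went both ways. Of 14 genes 9 were tested, 3 rose, 2 fell and 4 did not pass, with a median log2 change of 0.31. The 2 that fell passed the filter through the control-labelled library alone. Both were too low to enter the fit at a mean of at least 5 FPKM, so that setting could not test them. They were the type I receptor gene TGFBR1, at 4.53 FPKM against 0.503 and 0.432, and the signal transducer SMAD3, at 5.74 against 0.135 and 0.171. The type II receptor gene TGFBR2 rose from 13.4 to 28.2 and 27.4 FPKM, and the co-receptor gene TGFBR3 from 2.81 to 15.2 and 15.4 (limma adjusted p = 0.0192 and 0.00968). SKIL, which restrains SMAD proteins, rose from 5.85 to 17.2 and 16.8 FPKM. The ligand gene TGFB1 was at 37.4 FPKM against 20.3 and 24.8 and did not pass (limma adjusted p = 0.0724).

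Epithelial genes other than CDH1 were mostly silent in all libraries, and those called went both ways. Of 28, 18 were under 1 FPKM in all 6 libraries and 10 were tested, of which 4 rose and 2 fell, with a median log2 change of 0.47. Of these calls 3 of the rises and 1 of the falls came from genes that passed the filter through 1 side alone. EPCAM, an epithelial adhesion molecule, was listed at 0 in the control-labelled library and in TMD8 and stood at 4.39 FPKM with either STAT3 shRNA. RAB25 was listed at 0 in the control-labelled library against 4.92 and 5.05 FPKM, and the membrane protease gene ST14, present on both sides, rose from 4.18 to 50.1 and 57.3 FPKM. These higher levels were in the libraries that lacked CDH1. In the other direction, ELF3, an epithelial ETS factor, was at 13.0 FPKM against 0.225 and 0.374. OVOL2, a repressor of EMT, was listed at 0 in the control-labelled library against 2.82 and 2.05 FPKM, and was not called without the filter.

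Mesenchymal genes other than VIM were lower or not called in the libraries that lacked VIM. Of 23, 5 were tested, 0 rose, 4 fell and 1 did not pass, with a median log2 change of −1.44, and 3 of the 4 passed the filter through the control-labelled library alone. At an unadjusted p below 0.05 limma gave 1 higher and 4 lower, with no share over all genes beside these counts. Without the filter on low values 11 of the 23 were called lower, against 2094 of all 18077 genes then tested. The calls added by dropping the filter came from genes with a mean under 1 FPKM over the OCI-LY10 libraries. S100A4, a calcium-binding protein also made by leukocytes, fell from 90.3 FPKM to 1.38 and 1.47 (log2 change −5.24, SE 0.10, limma adjusted p = 0.00674), and TMD8 held 288 to 347. The collagen gene COL1A1 was at 3.6 FPKM in the control-labelled library, 0.00823 with shRNA 10 and at a listed 0 with shRNA 16. ACTA2, a smooth muscle actin gene, was at 3.63 FPKM against 0.670 and 0.755. TAGLN was at 0.937 FPKM against 2.02 and 2.90 and did not pass (limma adjusted p = 0.0798), though it was called higher with small RNA genes left out (0.0370). FN1, the fibronectin gene, was at most 0.498 FPKM in all 6 libraries, and MMP2 and POSTN were listed at 0.

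Vimentin was the only abundant cytoplasmic intermediate filament gene among those listed, keratins included. Desmin (DES), its relatives GFAP and PRPH, nestin (NES), INA, SYNM and the neurofilament genes NEFL, NEFM and NEFH were under 1 FPKM in every library. KRT8 reached 4.18 FPKM in TMD8 and did not pass in OCI-LY10, at 1.96 FPKM against 0.740 and 1.17 (limma adjusted p = 0.106). Among nuclear lamins, LMNB2 fell from 95.1 FPKM to 52.0 and 47.0 (limma adjusted p = 0.0260), a call that did not hold once the filter was dropped (0.0603). LMNA, which passed the filter through the control-labelled library alone, was at 7.18 FPKM against 0.335 and 0.760. LMNB1 did not pass, at 100.2 FPKM against 116 and 101. Of 13 genes of this group 4 were tested, 0 rose and 2 fell, with the same counts at an unadjusted p below 0.05 in limma and a median log2 change of −0.54.

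Summed levels of marker lists of other cell types moved with these differences in part. Myeloid markers summed to 48.2 FPKM in the control-labelled library, 2.39 and 1.55 with the STAT3 shRNAs and 23.4 to 34.9 in TMD8, nearly all of it CD68 (46.6, 1.41 and 0.927 in OCI-LY10), while FCGR3A and MPO were listed at 0 in all 6. Of the 7 myeloid markers 1 was tested and it fell. Endothelial markers summed to 0.290 FPKM in the control-labelled library and 5.46 and 6.10 with the shRNAs, where nearly all of it was PECAM1, while ROBO4 was listed at 0 in all 6, and PECAM1, the 1 tested of 6, passed the filter through the shRNA libraries alone. Neural markers, relevant to N-cadherin, summed to 3.26 FPKM in the control-labelled library, 16.0 and 17.2 with the shRNAs and 2.33 to 4.41 in TMD8. Of 7, 2 were tested and rose: the tubulin gene TUBB3, from 2.69 to 13.8 and 15.3 FPKM, and SYP, which passed the filter through the shRNA libraries alone and was not called without it. NCAM1, STMN2 and ELAVL4 were listed at 0 in all 6 libraries. T and NK cell markers summed to 0.417 to 1.43 FPKM in all libraries, and 0 of 8 were tested. Among B-cell markers 5 of 10 rose, 2 fell and 3 did not pass, with a median log2 change of 0.71: CD79B rose from 226 FPKM to 1139 and 1226 and CD22 fell from 62.1 to 23.0 and 29.3. POU2AF1, MS4A1 and CD79A also rose and EBF1 fell, with the calls of CD79A, CD22 and EBF1 lost without the filter (limma adjusted p = 0.0830, 0.0957 and 0.0680). PAX5, CIITA and CD74 did not pass. The part of these markers in the levels of CDH1, CDH2 and VIM was not tested.

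**Figure D4:**
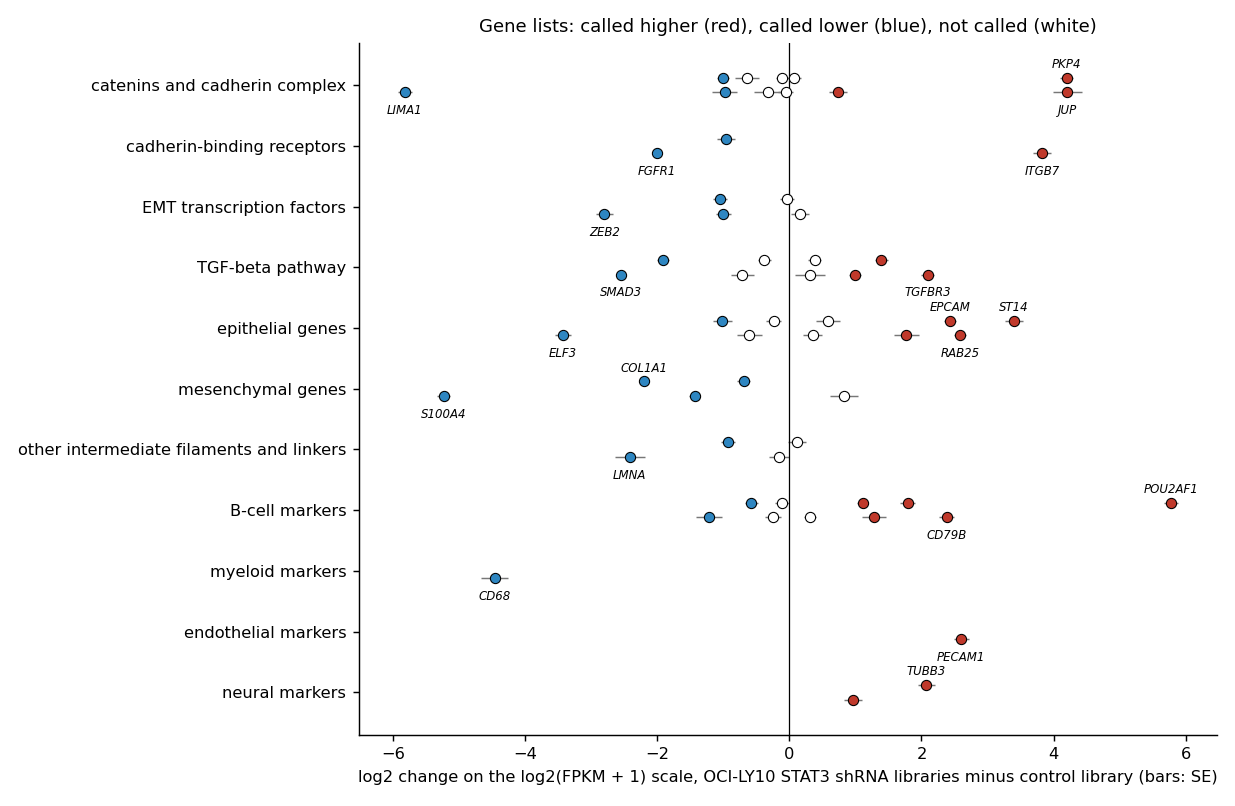
Log2 change on the log2(FPKM + 1) scale, OCI-LY10 STAT3 shRNA libraries minus the control-labelled library, for each tested gene of the lists (points; bars are limma's SE; red called higher, blue called lower, white not called at an adjusted p of 0.05). Genes beyond 2 either way are named, and lists with no tested gene are not drawn.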

How the data were processed

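The authors deposited 1 table of FPKM per line, with 25277 rows each. TopHat, Bowtie2 and hg19 are named per the submitters' processing notes. What computed FPKM, with which annotation and scaling, is not given in the sources used here. OCI-LY10 columns were matched to samples by name, and the 3 unnamed TMD8 columns were used by position with no shRNA assigned. From both tables, the 28 rows whose symbol had become a date were left out, among them the only repeated symbols. Relative depth is the commonest ratio of values under 0.1 FPKM (255 of 1168 and 397 of 1361 ratios within 1% in OCI-LY10). In TMD8 only 41 of 1344 and 19 of 1297 lay within 1%, so no depth is given. Since read totals are unknown, counting intervals are left out.

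OCI-LY10 STAT3 shRNA libraries were tested against the control library with limma 3.58.1 in R 4.3.3 (moderated by empirical Bayes, trend allowed, tests two-sided) on log2(FPKM + 1), which understates changes of low genes. A gene entered where its mean over the 3 libraries reached 1 FPKM, with 1 residual and 1.64 prior degrees of freedom, at a threshold of 0.05. The fit was tested on simulated data. TMD8 entered no fit. The members and the 13 gene lists were chosen with earlier results of these data known. Named genes were the members, STAT3, the B-cell markers, up to 3 called each way per list, the 5 nearest genes, the neighbours, DSG2, and genes whose role is described. Some list genes are not reported here by name. The SNURF, MAGEA1 and CD24 caveats rest on background knowledge. The check for mixed-up samples is given as a count. Neighbours and gene types came from RefSeq of another build (GRCh38.p14), without coordinates. Promoters are RefSeq's. Thresholds of 5 and 0.5 FPKM for on and off were set after levels were known.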

Additional observations from a re-analysis of the deposited data

How the results depend on the processing

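The log2 difference between both STAT3 shRNA libraries and the control kept its sign under every setting tried for CDH1, CDH2 and VIM. Its size followed the pseudocount: with 0.1 FPKM it was −8.28 for CDH1, 8.75 for CDH2 and −9.96 for VIM, and with 5 FPKM −2.91, 4.36 and −5.22. Median-of-ratios scaling gave −5.11 for CDH1 and −7.47 for VIM, and quantile normalization −5.12 for CDH1. With either shRNA library left out the ranges were −5.07 to −5.06, 6.40 to 6.57 and −7.44 to −7.40. Those settings leave 1 library a side, so no test was run on them, and the control library could not be left out. Without the filter on low values 1297 genes were called higher, against 2255, and 2094 lower, and for a mean of at least 5 FPKM 1171 were called lower, against 1933, with fewer genes tested. Of 40 list genes called, 26 were called in each alternative they entered, 14 lost the call in at least 1, and 0 changed direction. Of 182 list counts recomputed, 163 stayed within 1.5 times, 11 were lower and 8 higher. The 163 include counts of 0 that stayed at 0. Among these were most counts of the other cadherins and of the T and NK cell markers, which had 0 genes tested in the main fit. With 0.1 FPKM added instead of 1, 5 of the 5 genes nearest to CDH1, 3 to CDH2 and 2 to VIM were again among the nearest. The thresholds of 10 and 0.1 FPKM were added after seeing the data: 65.4% of 52 genes high in the control library alone were also high in TMD8, and 95.5% of 22 in the reverse pattern were low there. Over all genes outside small RNA genes, 23.8% were high and 39.3% low in all TMD8 columns at these thresholds. CDH1 met these thresholds, and VIM and CDH2 did not. No paired analysis was possible because the control library shares no replicate number with the STAT3 shRNA libraries. Each shRNA has 1 library per line, so replicate cultures of a condition were not compared.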

Other observations

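Low values on the off side of each pattern were common. Of the 105 genes with the OCI-LY10 pattern of CDH2, 91 were above 0 FPKM in the control-labelled library. Over all 105, the level there was at a median of 0.347% of the mean in the STAT3 shRNA libraries (quartiles 0.165% and 0.873%). CDH2 itself was at 0.133%. In TMD8, 38 of the 105 were listed at 0 in all 3 columns, CDH2 among them, and 28 of those 38 were above 0 in the control-labelled library. Of the 167 genes with the pattern of CDH1 and VIM, 131 were above 0 in at least 1 STAT3 shRNA library. Over all 167, the mean of the STAT3 shRNA libraries was at a median of 0.328% of the control, against 0.0157% for CDH1 and 0.0468% for VIM. The control library was the deepest of OCI-LY10, and the part of depth in these low values was not tested.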
